A study of Mus musculus with 9 samples.

Results

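The actin-related and perinuclear theca genes described here are Actl7a, Actl7b, Actl9, Actrt1, Actrt2, Actrt3, Capza3, Ccin, Cylc1 and Cylc2. They were chosen by gene symbol, as components of the cytoskeletal shell of the sperm head, and make up 10 of the 38674 genes of the table. All 10 were detected in every library. The libraries were made from testis RNA of male C57BL/6 mice, 3 of each genotype: wild type (Pfn3+/+, WT), heterozygous (Pfn3+/-, Het) and homozygous for a CRISPR/Cas9-induced deletion in profilin 3 (Pfn3-/-, KO). Profilins are small proteins that bind actin monomers, and Pfn3 is expressed in the testis. The study made more than 1 Pfn3 deletion line, and the labels give neither the line nor the age of the mice. The testis was taken without its capsule, the tunica albuginea, and holds all its germ cell stages and somatic cells.

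The perinuclear theca is a rigid protein layer between the nucleus and the membranes of the sperm head. It is built in round and elongating spermatids, the haploid cells that turn into sperm. Its lower part behind the acrosome, the calyx, holds calicin and the cylicins, and actin-related proteins largely restricted to the testis lie in it and under the acrosome. In mice and men, loss of several of these proteins detaches the acrosome or deforms the sperm head. ARPM1, the product of Actrt3, is known as a binding partner of PFN3 in the spermatid.

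Values are QuantSeq counts, in which each read comes from the 3′ end of a polyadenylated transcript, divided by 1 size factor per library (normalized counts). Each library held between 3375546 and 4287335 reads on genes. The detection limit was set at 3 reads, which came to 2.58 to 3.71 normalized counts and covers counting error only. The lowest count behind any value of the 10 genes was 44 reads, for Actrt1. Nothing in the labels says that the 3 libraries of a genotype came from separate mice, so p-values measure the spread between these libraries, which may be partly technical. Pfn3 itself stood at 592, 383 and 373 normalized counts in the WT libraries, at 136, 339 and 326 in the Het libraries and at 74.7, 215 and 279 in the KO libraries. The KO libraries were all below the WT libraries. Whether the counted 3′ reads lie outside the deleted stretch was not analysed here, so these values do not check the deletion itself.

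In each genotype, 1 library stood apart from the others in these genes. WT replicate 1 was the highest of all 9 libraries for 6 of the 10 genes and the lowest for 2. KO replicate 2 was below both other KO libraries for all 10 genes, and the lowest of all 9 libraries for 6. Het replicate 1 was below both other Het libraries for 9 of the 10. A log2 fold change in KO against WT that moved by over 1.5 times without WT replicate 1 or KO replicate 2 is also given without that library, and the counts and medians over the 10 genes are given without the libraries that moved them.

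Promoters of 5 of the 10 genes hold a match to a short pattern with a free letter, though not all in the same form. Their sequences are shown because the choice of genes did not use the pattern, but the pattern was picked from these promoters. RefSeq promoters of GRCm38.p6 were matched for 8 of the 10 genes, and those of Capza3 and Cylc2 were not. The letters searched were TGANGTCA on both strands (TGACNTCA on the opposite strand), in the 250 bases before the start of the gene. The motif TGACGTCA, the cAMP response element known to bind the CREB and CREM family, is 1 of its 4 forms and reads the same on both strands. The searched pattern TGANGTCA was chosen after these promoters had been read, so that its count among them is a description. TGANGTCA, in any of its forms, occurred in 5 of the 8 promoters, against 7.49% of the 32851 promoters of the table. The full element TGACGTCA occurred in 1 of the 8, that of Ccin, against 1.55% of all promoters. The form TGATGTCA (TGACATCA on the opposite strand) occurred in 4 of the 8, those of Actl7a, Actl7b, Actl9 and Cylc1, against 2.93%. Each sequence below runs 5′ to 3′ on the strand of the gene, from 120 to 25 bases before its RefSeq start, with matches in capitals.
Actl7a (chr4:56743302-56743397, plus strand): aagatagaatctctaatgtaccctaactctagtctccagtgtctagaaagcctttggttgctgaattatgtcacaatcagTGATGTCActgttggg
Actl7b (chr4:56741450-56741545, minus strand): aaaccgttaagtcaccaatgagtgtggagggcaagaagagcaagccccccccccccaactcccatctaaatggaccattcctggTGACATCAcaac
Actl9 (chr17:33432779-33432874, plus strand): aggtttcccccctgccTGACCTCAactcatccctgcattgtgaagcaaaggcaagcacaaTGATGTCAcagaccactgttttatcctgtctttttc
Ccin (chr4:43983384-43983479, plus strand): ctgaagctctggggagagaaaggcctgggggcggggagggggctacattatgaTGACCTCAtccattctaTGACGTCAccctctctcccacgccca
Cylc1 (chrX:111110298-111110393, plus strand): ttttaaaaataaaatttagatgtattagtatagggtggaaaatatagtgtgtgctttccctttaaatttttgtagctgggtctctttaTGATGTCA
The matches of Actl7a, Actl7b and Cylc1 began 40, 36 and 32 bases before the start. In Ccin matches began 67 and 50 bases before it, and in Actl9 104 and 60 bases before it. The letters were not found in the 250-base windows of Actrt1, Actrt2 and Actrt3.

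The genes lie on 5 chromosomes of GRCm38, and 5 of the 10 are on chromosome 4. Actl7a (ENSMUSG00000070979, 4:56743413-56744925, plus strand) and Actl7b (ENSMUSG00000070980, 4:56740005-56741443, minus strand) are single-exon genes that start back to back, 1970 bases apart. Actl9 (ENSMUSG00000092519) is a single exon at 17:33432896-33434268 on the plus strand. Actrt1 (ENSMUSG00000046615) is a single exon at X:46329007-46330345 on the plus strand, and Actrt2 (ENSMUSG00000051276) a single exon at 4:154666433-154667867 on the minus strand. Actrt3 (ENSMUSG00000037737) has 2 exons at 3:30597073-30599939 on the minus strand. Capza3 (ENSMUSG00000041791) lies at 6:140041252-140042778 on the plus strand, and its start overlaps that of Plcz1 on the minus strand by 206 bases. Ccin (ENSMUSG00000070999) is a single exon at 4:43983483-43985423 on the plus strand. Cylc1 (ENSMUSG00000073001) has 6 exons at X:111110418-111125854 on the plus strand. Cylc2 (ENSMUSG00000039555) has 5 exons at 4:51216678-51230272 on the plus strand.

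In order of level, the mean of the 9 libraries ran from 2198 normalized counts for Actl7b and 2162 for Actrt2 down to 372 for Actrt3 and 97.6 for Actrt1. Between them stood Cylc2 at 1218, Actl9 at 1106, Capza3 at 1057, Actl7a at 771, Cylc1 at 719 and Ccin at 605. Neighbours in the middle of this order could not be separated: Cylc2 was above Actl9 in 4 of the 9 libraries, Actl9 above Capza3 in 5, Actl7a above Cylc1 in 4 and Cylc1 above Ccin in 5. Actl7b was above Actrt2 in 6 of the 9. In all 9 libraries 4 steps of the order held, from Actrt2 to Cylc2, from Capza3 to Actl7a, from Ccin to Actrt3 and from Actrt3 to Actrt1. The mean was also taken per kb of transcript, the scale on which genes can be compared where reads cover the whole transcript. Reads here come from the 3′ end, so that condition is not met and the scale serves only as an alternative. Per kb, the mean ran from 1527 for Actl7b to 72.9 for Actrt1. On that scale 2 places changed, with Capza3 (865 per kb) above Actl9 (805 per kb) and Cylc2 (742 per kb) below it. Together the 10 genes took from 0.191% to 0.329% of the reads of a library.

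**Figure D1:**
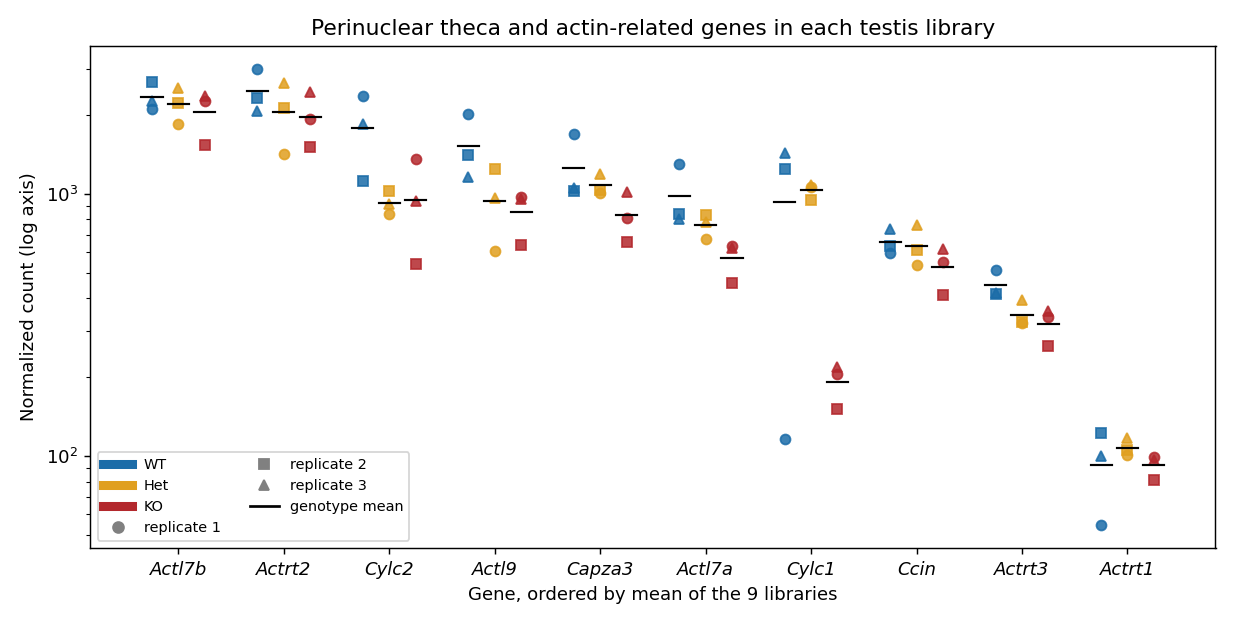
Normalized counts (log axis) of the 10 genes in each of the 9 testis libraries, with genes ordered by the mean of all libraries. Colours mark genotypes, marker shapes mark replicate numbers and black bars are genotype means. Cylc1 stands at 116 in WT replicate 1, below the 3 KO libraries at 151 to 219, and at 952 or more in the other 5 libraries.

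The actin-like proteins ACTL7A, ACTL7B and ACTL9 share the actin fold, and ACTL7A and ACTL9 are known to hold the acrosome to the nucleus. Actl7a was measured at 1295, 840.2 and 799 normalized counts in the WT libraries, at 674, 828 and 784 in the Het libraries and at 636, 457 and 624 in the KO libraries. Every KO library was below every WT and every Het library. The fitted difference, KO against WT, was a log2 fold change of -0.75 (SE 0.26), a level 1.69-fold lower, with an adjusted p of 0.610 in limma (unadjusted 0.0261).

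Actl9 was measured at 2009, 1402 and 1162 normalized counts in the WT libraries, at 604, 1246 and 963 in the Het libraries and at 971, 638 and 957 in the KO libraries. The KO libraries were again all below the WT libraries, while the Het libraries overlapped both. Its log2 fold change, KO against WT, was -0.82 (SE 0.28), with an adjusted p of 0.610 in limma (unadjusted 0.0254).

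Actl7b, the gene that starts next to Actl7a, stood at 2113, 2664 and 2267 normalized counts in the WT libraries, at 1856, 2216 and 2525 in the Het libraries and at 2259, 1530.5 and 2355 in the KO libraries. All 3 genotypes overlapped, with a log2 fold change of -0.22 (SE 0.22) between KO and WT and of -0.02 without KO replicate 2. The ratio of Actl7b to Actl7a within a library was 1.63, 3.17 and 2.84 in WT, 2.75, 2.68 and 3.22 in Het and 3.55, 3.35 and 3.78 in KO. The ratio was higher in each KO library than in every other library, and the difference between the responses of the neighbours was not tested.

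The actin-related ARP-T proteins, products of Actrt1 and Actrt2, are known from the calyx, and ARPM1 from the spermatid nucleus and theca. Actrt3 was measured at 513, 415 and 418 normalized counts in the WT libraries, at 321, 325 and 395 in the Het libraries and at 339, 264 and 357 in the KO libraries. Both the Het and the KO libraries lay below every WT library and overlapped each other. The log2 fold change of Actrt3 was -0.49 (SE 0.20, 95% interval -0.99 to 0.01) in KO against WT, -0.37 (SE 0.19) in Het against WT and -0.12 (SE 0.18) in KO against Het, with adjusted p-values of 0.610, 0.779 and 0.973 in limma.

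Actrt2 stood at 3001, 2321 and 2062 normalized counts in the WT libraries, at 1414, 2125 and 2639 in the Het libraries and at 1934, 1514 and 2448 in the KO libraries. Its genotypes overlapped in all 3 comparisons. The log2 fold change of Actrt2, KO against WT, was -0.33 (SE 0.24), and it was -0.18 without WT replicate 1 and -0.16 without KO replicate 2. Actrt1, the member of lowest level, was at 54.5, 122.5 and 100.4 normalized counts in WT, at 101, 105 and 117 in Het and at 99.6, 81.3 and 96.5 in KO. WT replicate 1 was the lowest of the 9, and the log2 fold change, KO against WT, was 0.07 (SE 0.34) with it and -0.27 without it. Without KO replicate 2 it was 0.16.

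Capza3 encodes the germ cell α subunit of the capping protein, which binds the fast-growing end of actin filaments. It was measured at 1700, 1030.3 and 1053 normalized counts in the WT libraries, at 1010.0, 1033 and 1195 in the Het libraries and at 813, 657 and 1019 in the KO libraries. KO and WT did not overlap, though KO replicate 3 and WT replicate 2 were close together, and the log2 fold change was -0.59 (SE 0.28, adjusted p = 0.613 in limma), or -0.35 without WT replicate 1. Capzb, which encodes its β subunit partner, stood at 1138, 1108 and 1070 normalized counts in WT, at 390.2, 1056 and 577 in Het and at 593, 453 and 584 in KO. Its log2 fold change was -1.03 in KO against WT (SE 0.18), with an adjusted p of 0.349 in limma (unadjusted 0.000969). The ratio of Capza3 to Capzb varied from 0.930 to 2.59 over the 9 libraries, and Het replicate 1 had the highest. Plcz1, the egg-activating phospholipase gene whose start overlaps that of Capza3, had a log2 fold change of -0.12 (SE 0.27) in KO against WT.

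Calicin, the product of Ccin, and the basic proteins cylicin 1 and 2 make up much of the calyx. Ccin was measured at 594, 636 and 733 normalized counts in the WT libraries, at 538, 611 and 759 in the Het libraries and at 549.7, 411 and 615 in the KO libraries. All genotypes overlapped, and KO against WT gave a log2 fold change of -0.33 (SE 0.22), which was -0.165 without KO replicate 2.

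Cylc2 was measured at 2367, 1121 and 1855 normalized counts in the WT libraries, at 842, 1027 and 912 in the Het libraries and at 1356, 539.8 and 942 in the KO libraries. The Het libraries were all below the WT libraries, while the KO libraries spread over both. The unadjusted p of Het against WT rose above 0.05 when WT replicate 1, WT replicate 3, Het replicate 1 or Het replicate 3 was left out, with log2 fold changes of -0.64 without WT replicate 1 and -0.81 without Het replicate 1. Its log2 fold change was -0.88 (SE 0.30) in Het against WT, with an adjusted p of 0.779 in limma (unadjusted 0.0244), and -0.94 (SE 0.42) in KO against WT (adjusted p = 0.612 in limma), the latter being -0.71 without WT replicate 1 and -0.59 without KO replicate 2.

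Cylc1 had the widest range of the 10 genes. It was measured at 116, 1243 and 1439 normalized counts in the WT libraries, at 1062, 952 and 1084 in the Het libraries and at 205, 151 and 219 in the KO libraries. Thus the KO libraries were low and close together, the Het libraries high and close together, and the WT libraries split, with WT replicate 1 below every KO library. The coefficient of variation was 76.5% in WT, against 3.23% from counting alone, 6.86% in Het (3.08% from counting) and 18.8% in KO (6.85% from counting). The highest WT library exceeded the lowest by 12.4 times, and 5.74% of the 5851 genes averaging 100 or more normalized counts were spread as widely in WT. Akap4 and Gsto2, among others, also jumped between libraries of a genotype. Akap4 stood at 45.8, 2573 and 2174 normalized counts in WT, 70.9, 2210 and 106 in Het and 1770, 105 and 137 in KO. Gsto2 stood at 53.2 in WT replicate 1, at 61.4 in Het replicate 1 and at 1023.5 or more elsewhere. WT replicate 1 had the fewest reads on genes (3375546) and the fewest genes above 0 (18229). The cause of these jumps was not tested.

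Cylc1 fell in KO against Het by 2.44 on the log2 scale (SE 0.19, 95% interval -2.89 to -1.99), a level 5.42-fold lower, with an adjusted p of 0.0262 in limma. The call was also made by edgeR (adjusted p = 0.0313) and by DESeq2 (adjusted p = 1.34e-24) on the recovered reads. It was lost when any 1 library other than Het replicate 2 was left out (adjusted p 0.0632 to 0.158), when all 9 libraries shared 1 fit (1.0) and with the replicate number as a block (0.489), while the log2 fold change stayed between -2.54 and -2.28. Against WT the log2 fold change of Cylc1 in KO was -1.64 (SE 0.96, adjusted p = 0.635 in limma). Without WT replicate 1 it was -2.81, with an adjusted p of 0.0147. In Het against WT it was 0.80 (SE 0.96) with WT replicate 1 and -0.38 without it.

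**Figure D2:**
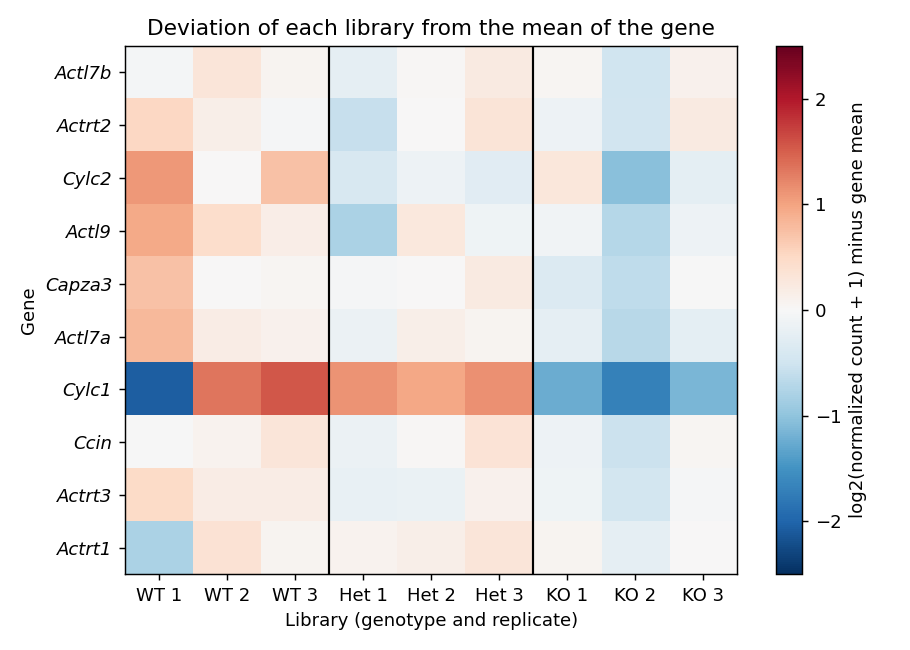
Log2(normalized count + 1) of each gene (rows) in each library (columns), minus the mean of the gene over the 9 libraries, with red above and blue below the mean. Cylc1 deviates by -2.06 in WT replicate 1 and by -1.15 to -1.69 in the KO libraries, and lies 0.96 to 1.56 above its mean in the other libraries. The KO replicate 2 column is below the mean for every gene.

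Across the genotypes, KO was compared with WT to ask whether loss of Pfn3 moved these transcripts. All 10 genes passed the filter on low values in each comparison, and a gene was called at an adjusted p under 0.05 where its log2 fold change was also above 1.5 or below -1.5. In KO against WT, none of the 10 was called (0 by limma, 0 by edgeR and 0 by DESeq2), where limma called 0.0352% of the 14223 genes tested. Actl9 and Actl7a were lower at an unadjusted p under 0.05, 2 of the 10, against 5.03% of all genes. In 4 of the 10, Actl7a, Actl9, Actrt3 and Capza3, every KO library was below every WT library, against 10.5% of all genes. Fitted values were below 0 for 9 of the 10, Actrt1 being the exception, against 48.6% of all genes. The median log2 fold change of the 10 was -0.54, beside 0.02 over all genes. Without WT replicate 1 the median was -0.39, and 7 of the 10 did not overlap, against 17.5% of all genes in that setting. Actl9 then had an unadjusted p over 0.05, and Actl7a and Cylc1 were under it. Without KO replicate 2 the median was -0.395 and the same 4 did not overlap, against 14.7% of all genes, but 0 of the 10 had an unadjusted p under 0.05. Scaled by reads counted on genes, the median of the 10 was -0.335 beside 0.217 over all genes.

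In Het against WT, limma called 0 of the 10 genes and 0.0% of the 14216 genes tested, 475 of which had an unadjusted p under 0.05. EdgeR called 0 of the 10 and 0 of all genes, and DESeq2 called 0 of the 10 and 31 of all genes. Cylc2 was lower at an unadjusted p under 0.05, 1 of the 10 against 1.89% of all genes. Actrt3 and Cylc2 did not overlap and were lower, 2 of the 10 against 6.49% of all genes. Fitted values were below 0 for 8 of the 10, against 49.5%. The median was -0.24 beside 0.01 over all genes, and was -0.09 without Het replicate 1 and -0.15 without WT replicate 1. Capza3 turned to 0.05 without WT replicate 1, and Actl7b to 0.02 and Ccin to 0.06 without Het replicate 1. Scaled by reads counted on genes, the median of the 10 was -0.082 beside 0.157 over all genes, and 6 of the 10 were below 0.

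In KO against Het, Cylc1 was called, 1 of the 10 against 0.0558% of the 14343 genes tested. It was also the only one of the 10 lower at an unadjusted p under 0.05, against 1.82% of all genes. Every KO library was below every Het library for Actl7a, Actrt1 and Cylc1, 3 of the 10 against 4.9% of all genes. All 10 fitted values were below 0, against 50.3% of all genes, with a median of -0.17 beside -0.003. Without KO replicate 2, 5 of the 10 were below 0 and the median was -0.05, the 5 above 0 being Actl7b, Actl9, Actrt2, Actrt3 and Cylc2. Without Het replicate 1 it was -0.34. The 3 comparisons share libraries, so that they do not count as separate evidence.

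**Figure D3:**
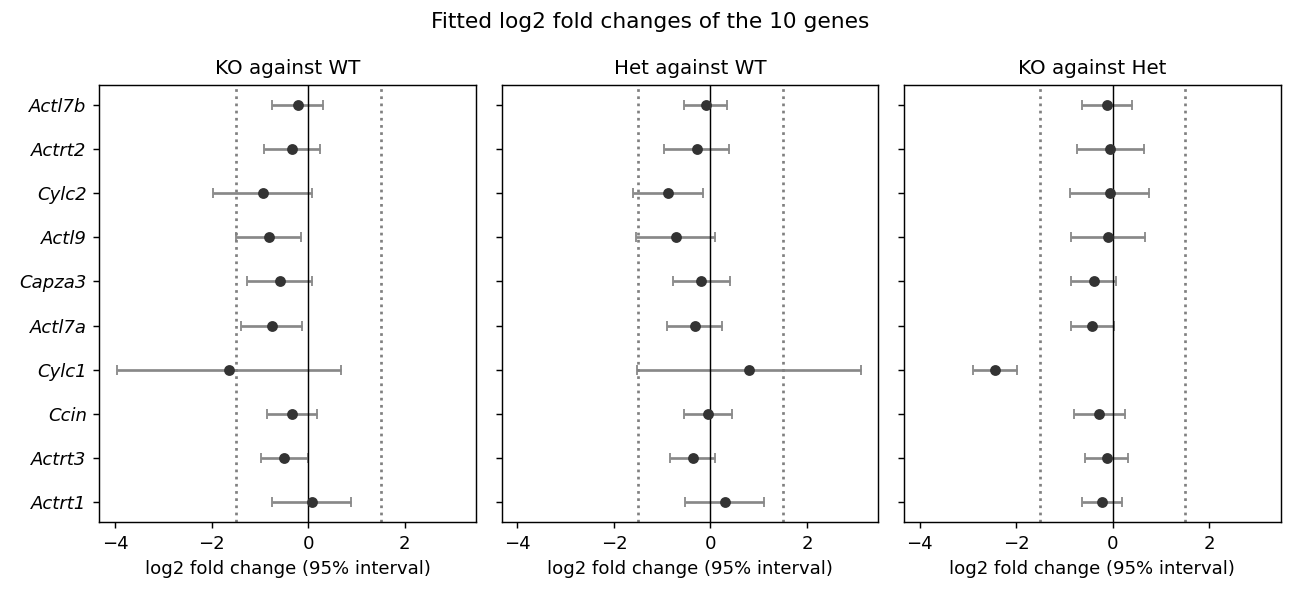
Fitted log2 fold changes of the 10 genes in the 3 comparisons, with 95% intervals from limma; dotted lines mark the cutoff of 1.5 in either direction. The Cylc1 interval spans -3.97 to 0.69 in KO against WT and -2.89 to -1.99 in KO against Het, and in KO against WT 9 of the 10 points lie left of 0.

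The sum of the 10 genes is set here beside markers of spermatids. It was 13764, 11794 and 11889 normalized counts in the WT libraries, 8421, 10468 and 11373 in the Het libraries and 9163, 6243 and 9632 in the KO libraries. The KO libraries were all below the WT libraries. The sum of 8 round spermatid markers (Acrv1, Spaca1, Tssk1, Tssk2, Catsper3, Spata25, Sun5 and Acr, of which Spaca1 is also a theca gene of the lists used here) was 9631, 7522 and 7364 in WT, 5599, 7473 and 6839 in Het and 5825, 3774 and 5886 in KO. Among these markers Tssk2, Tssk1 and Acrv1 had the highest means of the 9 libraries (2408, 1202 and 1141) and weigh most in their sum. Divided by this marker sum, the sum of the 10 genes was 1.43, 1.57 and 1.61 in WT, 1.504, 1.40 and 1.66 in Het and 1.57, 1.65 and 1.64 in KO. On this ratio the genotypes overlapped, and KO replicate 2 lay beside the other KO libraries. Without Cylc1, the ratio was 1.40 to 1.42 in WT, 1.27 to 1.505 in Het and 1.54 to 1.61 in KO, so that KO was above WT. This order rests on leaving out Cylc1, a gene that was low in every KO library and in WT replicate 1. As a percentage of the sum of 8 elongating spermatid markers (Tnp1, Tnp2, Prm1, Prm2, Prm3, Odf1, Smcp and Akap4), the 10 genes were 4.38% to 5.45% in WT, 4.34% to 4.87% in Het and 4.43% to 4.66% in KO. Prm1, Tnp1, Prm2 and Tnp2 weigh most in that sum, with means of 91720, 58660, 32220 and 21750 normalized counts.

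Of the round spermatid markers, 7 of 8 had a fitted value below 0 in KO against WT and 3 of 8 an unadjusted p under 0.05 (Sun5, Tssk1 and Tssk2). Of the elongating spermatid markers it was 8 of 8 and 3 of 8 (Odf1, Tnp2 and Prm2). Over all genes, 48.6% were below 0 and 5.03% were lower at an unadjusted p under 0.05 in limma. Akap4, 1 of the 8 below 0, had a log2 fold change of -1.11 (SE 1.84). The sum of the elongating spermatid markers ranged from 252550 to 269350 in WT and from 134000 to 215610 in KO. Their mean log2(normalized count + 1) overlapped, at 13.28 to 13.97 in WT and 12.55 to 13.5 in KO. Of the spermatocyte markers, 0 of the 7 tested were below 0, and 2 of 7 were higher at an unadjusted p under 0.05 (Sycp1 and Sycp3). Over all 14223 genes, 1148 had an unadjusted p under 0.05 in limma in either direction. The sum of the spermatocyte markers ranged from 4598 to 6456 in WT and from 7410 to 8330 in KO. Their mean log2 overlapped (7.44 to 8.23 in WT, 7.88 to 8.69 in KO), while that of the round spermatid markers did not (9.31 to 9.65 in WT, 8.53 to 9.12 in KO). The log2 fold changes were 0.76 (SE 0.18) for Sycp1 and 0.71 (SE 0.20) for Sycp3, with limma's adjusted p at 0.583 and 0.610. No marker of these 3 lists was at 0 in all libraries. In none of them was a gene called by limma, edgeR or DESeq2. In bulk testis, fewer spermatids and less of these transcripts in each spermatid cannot be told apart.

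**Figure D4:**
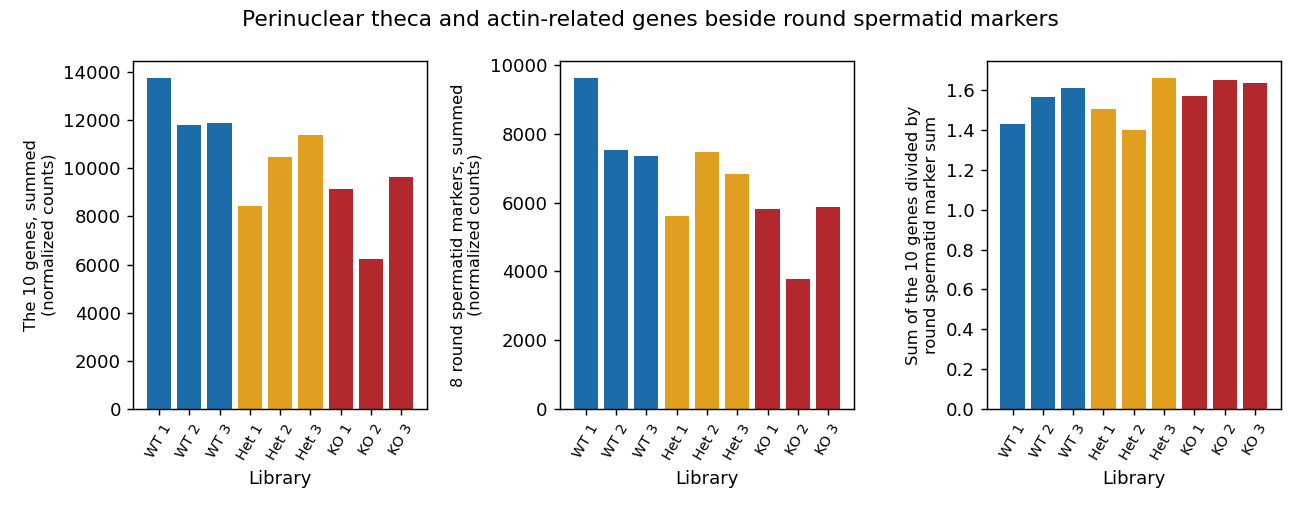
Bars give, for each library, the summed normalized counts of the 10 genes, the summed normalized counts of 8 round spermatid markers, and the first sum divided by the second. The sum of the 10 genes ranges from 6243 to 13764, and the ratio from 1.40 to 1.66 with the genotypes overlapping.

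Other genes of the perinuclear theca, the acroplaxome (the plate that anchors the acrosome) and the actin machinery were read from the same fits. Of 21 further theca and acroplaxome genes, 14 had a fitted value below 0 in KO against WT, against 48.6% of all genes. Their median was -0.14, and 0 were called by limma, edgeR or DESeq2. Myo6, a myosin motor that walks to the pointed end of actin filaments, stood at 161, 144 and 130.3 normalized counts in WT, at 40.6, 139 and 38.1 in Het and at 61.0, 56.1 and 88.5 in KO. Its log2 fold change, KO against WT, was -1.09 (SE 0.25, adjusted p = 0.562 in limma, unadjusted 0.00420). Wbp2nl, which encodes the theca protein PAWP, stood at 579, 369 and 349 in WT, at 273, 313 and 353 in Het and at 233, 217 and 261 in KO, a log2 fold change of -0.83 (SE 0.25, adjusted p = 0.610 in limma, unadjusted 0.0153). Cypt15, of a family of cysteine-rich theca proteins, was lower in Het against WT at a log2 fold change of -0.55 (SE 0.20, adjusted p = 0.779 in limma, unadjusted 0.0351).

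Of the 5 further actin and actin-like genes tested, all 5 were below 0 in KO against WT, against 48.6% of all genes, with a median of -0.58. Actl11 was at 825, 565 and 772 normalized counts in WT, at 488, 778 and 643 in Het and at 366, 393 and 529 in KO, a log2 fold change of -0.75 (SE 0.24, adjusted p = 0.610 in limma, unadjusted 0.0196). Actb, cytoplasmic β-actin, had a log2 fold change of -0.37 (SE 0.18, adjusted p = 0.615 in limma). None of these was called by limma, and 1, Actg1, was called by DESeq2 as lower. Actg1, cytoplasmic γ-actin, stood at 612, 1926 and 54.1 normalized counts in WT, at 136, 1881 and 63.5 in Het and at 48.1, 87.1 and 67.0 in KO. WT replicate 3 lay within the range of the KO libraries, and limma gave a log2 fold change of -2.60 (SE 1.24, adjusted p = 0.614, unadjusted 0.0789). Of the 3 other capping protein subunit genes, Capzb was below 0 and the other two were above. Of the 4 profilin genes, 2 were below 0, with a log2 fold change of -1.41 (SE 0.52, adjusted p = 0.610 in limma, unadjusted 0.0336) for Pfn3.

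The genes were also compared with each other by their pattern over the 9 libraries, as the mean absolute gap of log2(normalized count + 1) after centring each gene. These gaps are descriptions, since the libraries share genotype, cell makeup and scaling. The nearest pair was Actl7b and Ccin, with a gap of 0.107, and next were Actl7a and Capza3, at 0.125. Actrt3 was nearest to Ccin (0.147), Actrt2 to Actrt3 (0.150), Actl9 to Actl7a (0.184), Actrt1 to Actl7b (0.191) and Cylc2 to Actl7a (0.317). Cylc1 was the farthest from each of the other 9, at gaps of 1.15 to 1.39. For every gene of the set, some of the 5851 genes averaging 100 or more normalized counts were nearer than its nearest fellow. Their number was 24 for Ccin, 30 for Actl7b, 81 for Actrt2, 94 for Actl7a and 97 for Capza3. It was 190 for Actl9, 303 for Cylc2, 310 for Actrt3, 342 for Actrt1 and 567 for Cylc1. The gaps therefore do not set these genes apart as a group. Among these 5851 genes averaging 100 or more, the 5 with a pattern most like that of Actrt3 were Cyp51 (0.053), Svip (0.068), Dcaf12 (0.070), Cct6b (0.076) and Naa60 (0.076). Between Actrt3 and Pfn3 the gap was 0.541, and 4633 of the 5851 genes were nearer to Actrt3 than Pfn3 was. Pfn3 is the edited gene in the Het and KO libraries, and its own pattern may carry the deletion. This gap therefore cannot tell whether the transcripts of Actrt3 and Pfn3 otherwise go together.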

How the data were processed

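Gene expression was measured in 9 testis samples with QuantSeq 3′ libraries. Per the labels and the study's methods, the authors trimmed reads with Trim Galore 0.4.5, aligned them to GRCm38 with HISAT2 2.1, counted genes with StringTie 1.3.3 and removed pseudogenes. The deposited signal values are counts per gene, each scaled by the size factor of its library, and 100% of them were whole multiples of 1 read within 0.01, so reads were recovered. Libraries were grouped by the genotype in their labels. Genotypes were compared pairwise with limma 3.58.1 (trend, R 4.3.3) on log2(normalized count + 1), for genes at 10 or more in at least 3 libraries, with Benjamini-Hochberg adjustment over all genes tested. The cutoffs are the study's. Alternatives were edgeR 4.0.16 and DESeq2 1.42.0 on recovered reads, TMM and total-read scaling, pseudocounts of 0.5 and 5, no filter, all 9 samples in 1 fit, the replicate number as a block, leaving out each library, and levels per kb. The functions were tested on simulated data.

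The genes and lists were chosen with earlier results of these data known. All 10 genes are named, with Pfn3, Capzb, Plcz1, Actb, genes of the theca, actin, capping protein and profilin lists with an unadjusted p under 0.05 in any comparison, and nearest genes by pattern. Other genes named, cell type markers included, were singled out after their values were seen. Further marker lists (spermatogonia, Sertoli cell, Leydig cell, macrophage, erythrocyte, epididymis) were checked. Gene models were GENCODE vM21.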

Additional observations from a re-analysis of the deposited data

How the results depend on the processing

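Of the 10 genes in 3 comparisons, 264 of the 270 log2 fold changes refitted under settings other than leaving out a library kept their direction and their side of the cutoffs. Reversed were, in Het against WT scaled by reads counted on genes, Actl7b (0.056) and Ccin (0.105), and, in KO against Het, Cylc2 with DESeq2 and with edgeR (0.03 each). That scaling moved the median of all genes to 0.217 in KO against WT and 0.157 in Het against WT. The median of the 10 genes under it was -0.335 and -0.082. The cause of these changes was not tested.

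Counts within 1.5 times of the main one are left out here, except as a range. In KO against WT the number of all genes called was 5, but 100 with DESeq2, 3 with all 9 samples in 1 fit and 0 with the replicate block, and 4 to 7 under the other settings. In Het against WT it was 0, but 31 with DESeq2, 1 with TMM factors, 2 with a pseudocount of 5, 3 with no filter and 3 with all 9 samples in 1 fit. In KO against Het it was 8, but 38 with DESeq2, 5 with edgeR, 4 with all 9 samples in 1 fit and 0 with the replicate block, and 7 to 9 under the other settings. Of the 10 genes, 1 was called in KO against Het, and 0 with all 9 samples in 1 fit or the replicate block. Correlations of same-numbered libraries ranged from -0.14 to 0.188 and were not all over 0.1. Libraries of different numbers were not correlated for comparison, so these values cannot tell whether the numbers pair the samples.

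Leaving out each library in turn, the number of all genes called ranged from 0 to 49 in KO against WT (49 without WT replicate 1), from 0 to 3 in Het against WT and from 0 to 39 in KO against Het (39 without Het replicate 2), and that of the 10 genes from 0 to 1 in KO against WT and from 0 to 1 in KO against Het. Log2 fold changes that changed sign ranged, in KO against WT from -0.265 to 0.312 for Actrt1. They ranged, in Het against WT from -0.205 to 0.017 for Actl7b, -0.042 to 0.535 for Actrt1, -0.314 to 0.047 for Capza3, -0.185 to 0.063 for Ccin, -0.375 to 1.433 for Cylc1. They ranged, in KO against Het from -0.234 to 0.08 for Actl7b, -0.382 to 0.14 for Actl9, -0.296 to 0.153 for Actrt2, -0.206 to 0.01 for Actrt3, -0.373 to 0.291 for Cylc2. Counts of 44 to 2762 reads behind each value put counting error below the spread between libraries for most of the 10 genes, so depth limits these results less than the number of libraries.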

Other observations

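Summed levels of markers of testis cells other than spermatids overlapped between KO and WT, except that summed spermatocyte markers were higher in every KO library than in every WT library. Piwil1, Sycp2 and Sycp1 weigh most in that sum, with means of 2829, 1359 and 1351 normalized counts. With each spermatocyte marker weighted equally, the mean log2(normalized count + 1) overlapped, at 7.44 to 8.23 in WT and 7.88 to 8.69 in KO. In normalized counts, spermatogonial markers summed to 236 to 428 (WT) and 239.6 to 275 (KO), Sertoli cell markers to 3074 to 3852 and 2628 to 5037, Leydig cell markers to 1933 to 3402 and 1756 to 2652, macrophage markers to 132 to 279.8 and 214 to 246, and erythrocyte markers to 927 to 1243 and 853 to 1148. Of 4 epididymis markers, 2 were at 0 in all 9 libraries, and the list summed to at most 22.3. Wt1, a Sertoli cell marker singled out after its values were seen, stood at 9.90, 17.4 and 29.0 normalized counts in WT, at 168, 179.7 and 116 in Het and at 155, 199 and 32.2 in KO. In limma its log2 fold change was 2.48 in KO against WT (SE 0.76, adjusted p = 0.610) and 3.08 in Het against WT (SE 0.42, adjusted p = 0.544). DESeq2 called it higher in both comparisons, and no other gene of these lists. In no comparison did limma or edgeR call a gene of these lists.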
